A study of Homo sapiens with 12 samples.

Results

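Transcripts of 10 genes of the bone morphogenetic protein (BMP) pathway were followed in 2 testicular germ cell tumour lines exposed to I-BRD9, an inhibitor of the BRD9 bromodomain (BRD9 belongs to the non-canonical BAF chromatin remodelling complex). The genes were taken by symbol from the deposited table, 10 of 63241 genes: the ligands BMP2, BMP4 and BMP7, the inhibitors SMAD6, SMAD7 and BAMBI, and the target genes ID1, ID2, ID3 and ID4. The 4 groups were TCam-2 with I-BRD9, TCam-2 with DMSO, 2102 EP with I-BRD9 and 2102 EP with DMSO, each with 3 libraries that the labels call biological replicates. TCam-2 is a seminoma line grown in RPMI medium and 2102 EP an embryonal carcinoma line grown in DMEM, both labelled wild type. I-BRD9 was given at 15 µM, DMSO is its solvent, and the time on the labels is 24 h. Each line is a single established culture and stands for its tumour type only as that, and the medium differed with the line, so that line and medium cannot be told apart.

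BMP ligands bind paired serine/threonine kinase receptors at the cell surface, which phosphorylate SMAD1, SMAD5 and SMAD9. These join SMAD4, enter the nucleus and switch on target genes, among which the ID genes are the best known. ID proteins are helix-loop-helix proteins without a DNA-binding region that bind E proteins and keep them off DNA. SMAD6 and SMAD7 block the receptors, and BAMBI is a receptor decoy without a kinase; all are themselves induced by the pathways they restrain. BMP signals are needed for the specification of primordial germ cells, the cell type that seminoma resembles.

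The promoters of the ID genes are shown because ID2 and ID4 rose with I-BRD9 in both lines and ID1 in 2102 EP, and that of BAMBI because it is a target gene of the same pathway that was not called between treatments. The windows are the 250 bases before the RefSeq start on GRCh38.p14, 5′ to 3′ on the gene's strand: chr20:31605039-31605288 (plus strand) for ID1, chr2:8681806-8682055 (plus) for ID2, chr1:23559502-23559751 (minus) for ID3, chr6:19837120-19837369 (plus) for ID4 and chr10:28677271-28677520 (plus) for BAMBI. Capitals mark GGCGCC, a palindrome known as a binding motif of SMAD1 and SMAD5, and CAGAC, a SMAD3 and SMAD4 binding motif, read on both strands (its complement is GTCTG). The motifs do not overlap each other in these windows.
ID1 promoter: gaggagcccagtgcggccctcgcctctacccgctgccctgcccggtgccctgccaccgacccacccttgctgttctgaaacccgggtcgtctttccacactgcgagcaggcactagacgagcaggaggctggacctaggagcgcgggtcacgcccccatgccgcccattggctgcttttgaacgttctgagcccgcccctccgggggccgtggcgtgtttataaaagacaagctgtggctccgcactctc
ID2 promoter: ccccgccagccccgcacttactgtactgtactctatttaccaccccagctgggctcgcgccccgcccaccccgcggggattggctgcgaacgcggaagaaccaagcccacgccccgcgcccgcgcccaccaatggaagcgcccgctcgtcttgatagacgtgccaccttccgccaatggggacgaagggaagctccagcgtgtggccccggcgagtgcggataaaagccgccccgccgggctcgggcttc
ID3 promoter: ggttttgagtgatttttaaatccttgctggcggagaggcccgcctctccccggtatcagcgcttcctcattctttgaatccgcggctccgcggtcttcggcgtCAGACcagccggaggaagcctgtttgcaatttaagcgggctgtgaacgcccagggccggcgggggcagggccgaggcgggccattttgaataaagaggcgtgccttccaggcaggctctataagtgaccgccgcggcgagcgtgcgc
ID4 promoter: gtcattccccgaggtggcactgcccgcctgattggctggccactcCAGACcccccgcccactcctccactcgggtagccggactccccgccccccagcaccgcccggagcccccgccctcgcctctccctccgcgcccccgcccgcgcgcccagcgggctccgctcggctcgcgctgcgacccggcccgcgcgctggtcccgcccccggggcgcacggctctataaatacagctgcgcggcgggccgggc
BAMBI promoter: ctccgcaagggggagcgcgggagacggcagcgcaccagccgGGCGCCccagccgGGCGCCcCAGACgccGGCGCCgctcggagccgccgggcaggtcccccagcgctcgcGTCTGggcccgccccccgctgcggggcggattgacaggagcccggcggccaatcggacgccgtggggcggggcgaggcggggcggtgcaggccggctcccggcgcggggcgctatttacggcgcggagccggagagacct
GGCGCC was found 3 times before BAMBI, and it was in none of the 4 ID windows, against 16.4% of the 34943 promoter windows of this length. CAGAC was found before ID3 (base 147 before the start) and ID4 (base 205), in neither ID1 nor ID2, and 2 times before BAMBI, against 38.0% of all windows. Of the windows not shown, 1 of 3 of BMP4 held GGCGCC, 2 of 3 of BMP4 and 2 of 3 of SMAD7 held CAGAC, and that of SMAD6 held neither. A match describes letters, not a bound site, and motifs beyond the 250 bases were not searched for, so absence here says nothing of them. The BAMBI window held 81.2% G and C and the 4 ID windows 62.0% to 78.8%, against a median of 58.0% over all windows. GGCGCC consists of these letters only, and its counts were not corrected for this. RefSeq entries were matched for 8 of the 10 genes.

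Values are CPM, library-size-normalised counts after scaling of the libraries (TMM). Library totals ranged from 7290335 to 10053366 estimated counts, so that 3 counts in a library were 0.297 to 0.409 CPM. The libraries are read from the 3′ ends of transcripts, and CPM does not scale with transcript length. Of 15614 genes that passed the filter on low counts 9 were members, all but BMP2. The threshold for a call was an adjusted p of 0.05 (edgeR quasi-likelihood test, Benjamini-Hochberg over all genes tested). For a level ± is the SD over 3 libraries, and for a log2 fold change it is the standard error. That standard error was worked back from the log2 fold change and the F value of the test. It can be unreliable at low counts and for very small changes. Of 6 markers listed for TCam-2, 5 were higher in TCam-2 than in 2102 EP with DMSO and ALPL was lower (−0.88, adjusted p = 7.35e-06). Of 6 listed for 2102 EP, 4 were lower in TCam-2, while POU5F1 (0.85, adjusted p = 8.26e-09) and NANOG (1.58, adjusted p = 4.67e-11) were higher there. SOX17 had 45.3 ± 3.12 CPM in TCam-2 with I-BRD9 and 193 ± 6.66 CPM in TCam-2 with DMSO, and no counts and 2 counts in all in 2102 EP with I-BRD9 and with DMSO. SOX2 had 257 ± 4.74 CPM in 2102 EP with I-BRD9 and 468 ± 21.1 CPM with DMSO. The first principal component parted the lines and held 67.4% of the variance. Of 5 fibroblast markers DCN and LUM had 3 and 28 counts over the 12 libraries; the list's summed level, carried by COL1A2 in TCam-2 and THY1 in 2102 EP, both lower with I-BRD9 in both lines, was 89.3 to 135 CPM in TCam-2 with I-BRD9 and 189 to 196 CPM with DMSO, and 129.9 to 154 CPM in 2102 EP with I-BRD9 and 228 to 255 CPM with DMSO. The 2 blood markers summed to at most 3.61 CPM and the 3 endothelium markers to at most 2.36 CPM in any library, and of these CD68 (blood) was called higher with I-BRD9 in 2102 EP. VWF (endothelium) was called in neither line, but its effects differed between the lines (−3.12, adjusted p = 0.0446), and both CD68 (−2.60, adjusted p = 0.000732) and VWF (−2.17, adjusted p = 0.0151) were lower in TCam-2 than in 2102 EP with I-BRD9. Their part in the results was not tested.

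With I-BRD9, 4 of the 9 tested members were called in TCam-2 (3 higher, 1 lower) and 5 in 2102 EP (4 higher, 1 lower). Among all genes tested 31.8% were called in TCam-2 (15.3% higher, 16.5% lower) and 36.8% in 2102 EP (18.2% higher, 18.6% lower), so that the members' counts are to be read against a wide response. ID2 and ID4 rose in both lines and ID1 rose in 2102 EP. BMP7 and SMAD7 were called in both lines in opposite directions: in TCam-2 BMP7 fell and SMAD7 rose, and in 2102 EP BMP7 rose and SMAD7 fell. BMP4, SMAD6, BAMBI and ID3 were not called in either line. In bulk RNA, fewer cells of a type and less RNA per cell cannot be told apart. The median log2 fold change of the 9 members was 0.26 in TCam-2 and 0.56 in 2102 EP, and that of all genes tested 0.0069 and 0.0025.

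**Figure D1:**
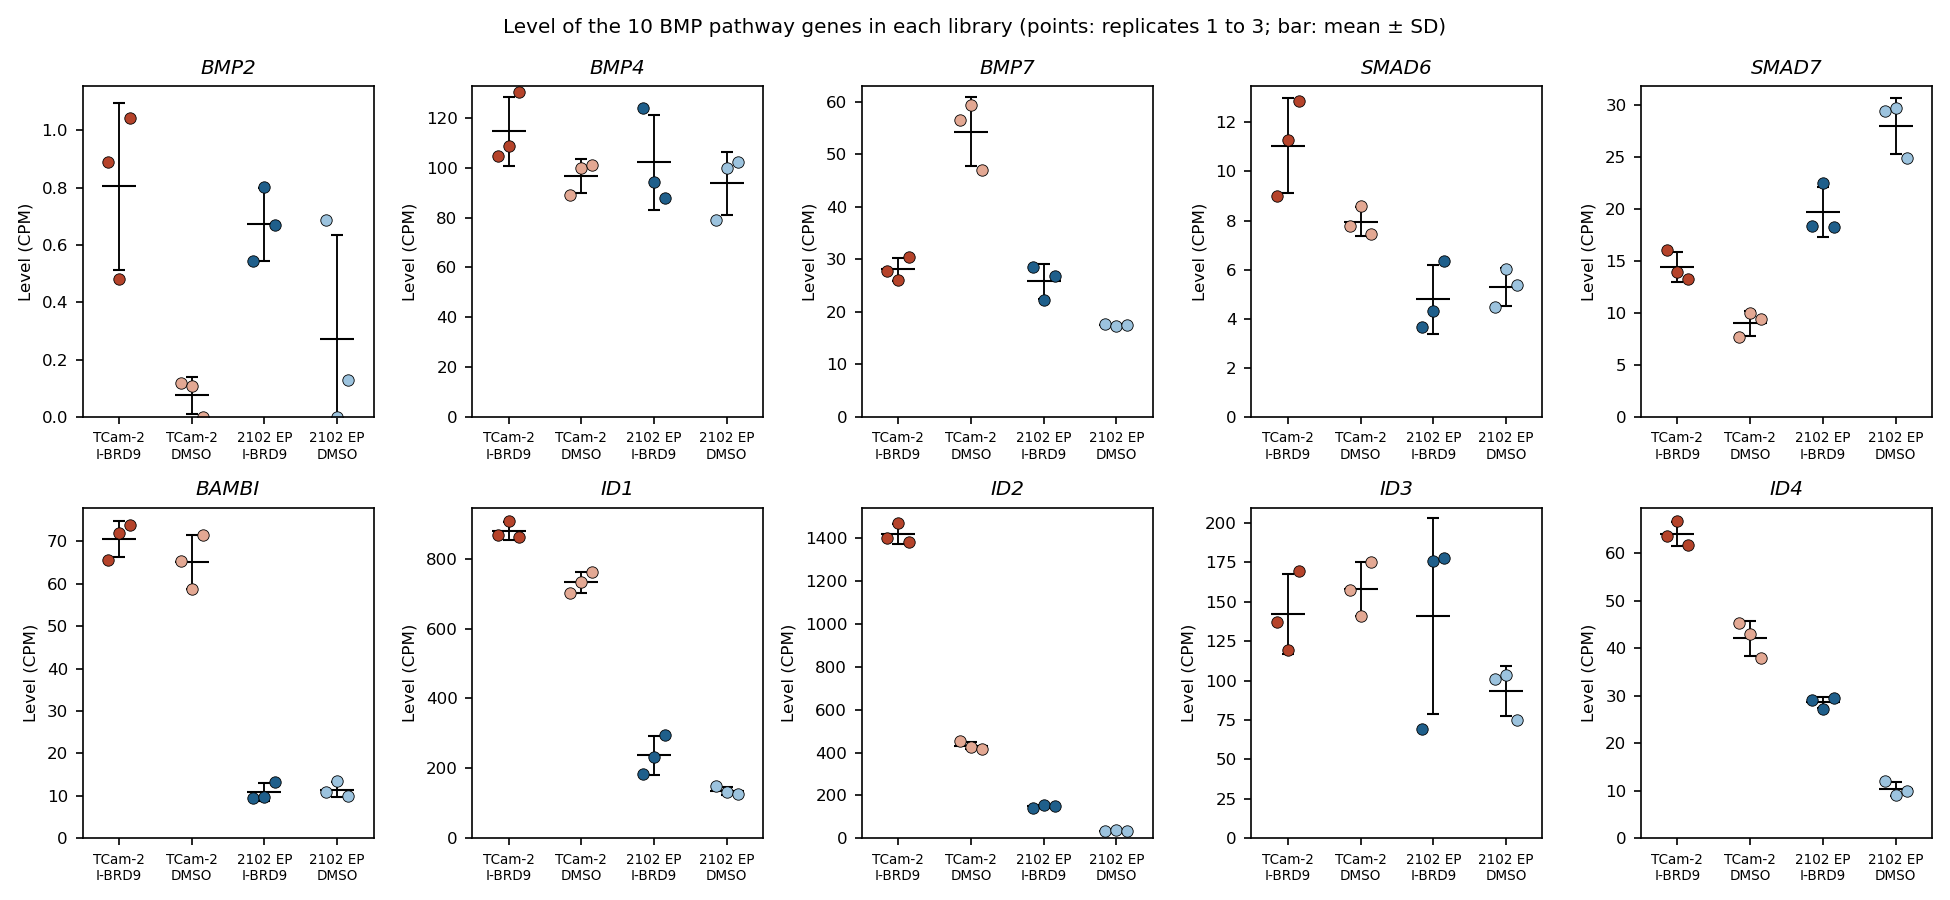
Level (CPM, linear axis from 0) of each of the 10 genes in the 12 libraries, by group; points are replicates 1 to 3 and bars the mean ± SD. ID2 stood at 1383 to 1472 CPM in TCam-2 with I-BRD9, above 418 to 452 CPM with DMSO, and BMP7 and SMAD7 moved in opposite directions in the 2 lines.

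**Figure D2:**
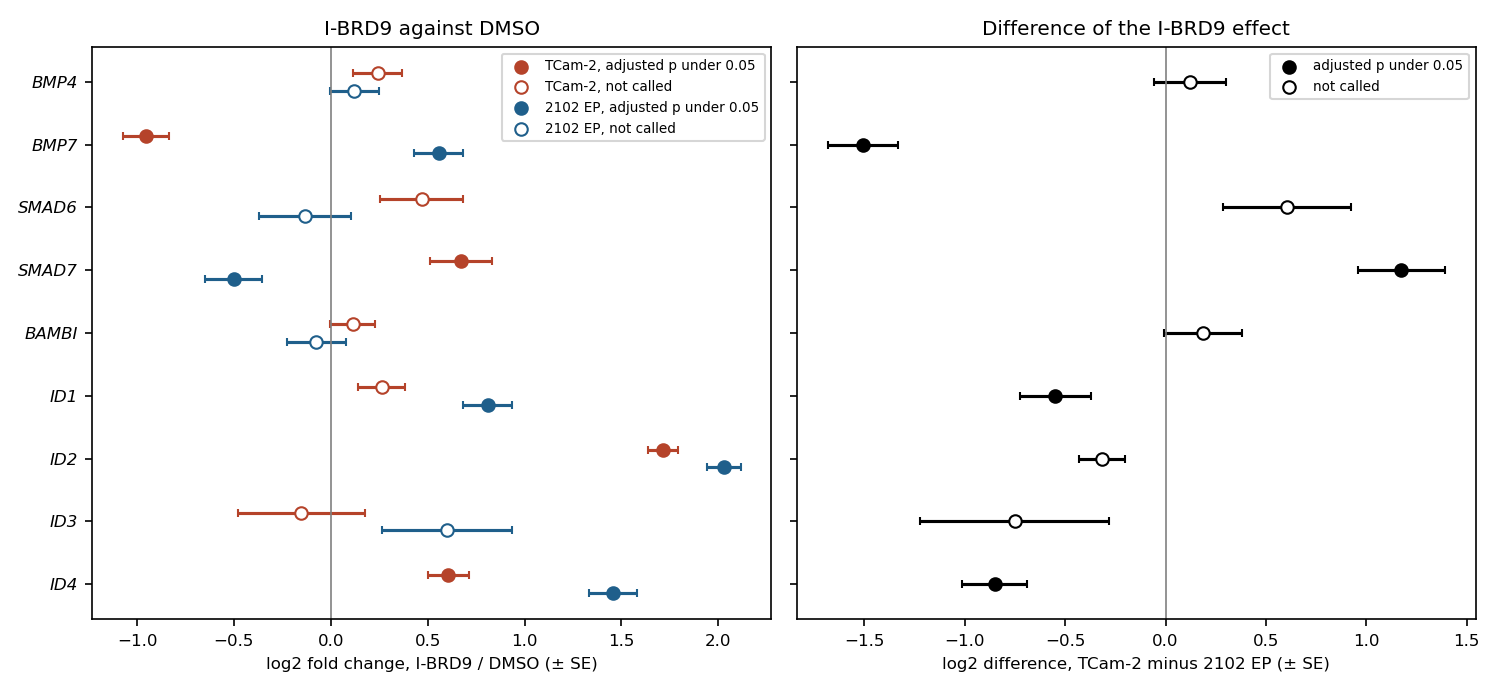
Left, log2 fold change of I-BRD9 over DMSO (± SE) for the 9 tested members in TCam-2 and 2102 EP; right, the difference of these effects, TCam-2 minus 2102 EP (± SE). Filled points have an edgeR adjusted p under 0.05: BMP7 (−1.51) and SMAD7 (1.17) lie farthest from 0 in the right panel.

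BMP4 is the ligand most studied in germ cell specification and was the most abundant of the 3 ligands. It lies on chromosome 14 (53949736 to 53958761, minus strand, GRCh38, GENCODE 29; ENSG00000125378). In TCam-2 it had 105, 109 and 130.2 CPM with I-BRD9 and 89.0, 99.98 and 101 CPM with DMSO; the libraries of the groups did not overlap, as for 45.7% of all genes tested, but the change was not called (log2 fold change 0.24 ± 0.13, adjusted p = 0.161). In 2102 EP it had 124, 94.4 and 88.0 CPM with I-BRD9 and 79.0, 99.9 and 102 CPM with DMSO, with overlapping groups (0.12 ± 0.13, adjusted p = 0.498). Between the lines BMP4 was not called with I-BRD9 (TCam-2 over 2102 EP 0.17 ± 0.13, adjusted p = 0.26) or with DMSO (0.05 ± 0.13, adjusted p = 0.772). In a fit on the 6 TCam-2 libraries alone the TCam-2 change was called (0.24, adjusted p = 0.0373), and without I-BRD9 replicate 1 of 2102 EP the line difference with I-BRD9 was called (0.33, adjusted p = 0.0129).

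BMP7, a ligand that forms dimers with BMP2 or BMP4, went opposite ways in the lines (ENSG00000101144, chromosome 20, 57168748 to 57266629, minus strand). In TCam-2 it had 27.7, 26.1 and 30.4 CPM with I-BRD9 against 56.5, 59.3 and 46.9 CPM with DMSO. All treated TCam-2 libraries lay below all DMSO libraries (45.7% of all genes tested did not overlap, in either direction). The level fell by 0.95 ± 0.12 on the log2 scale (edgeR adjusted p = 1.61e-06). In 2102 EP it had 28.5, 22.1 and 26.8 CPM with I-BRD9 against 17.6, 17.3 and 17.5 CPM with DMSO. Here all treated libraries lay above (46.3% of all genes did not overlap), a log2 fold change of 0.56 ± 0.13 (adjusted p = 0.00156). The effects differed by −1.51 ± 0.17 (TCam-2 minus 2102 EP, adjusted p = 1.95e-06), in a comparison in which 1 tested member was higher and 3 were lower, beside 5.9% and 7.19% of all genes (13.1% in either direction). With I-BRD9 the lines stood at 28.0 ± 2.18 CPM in TCam-2 and 25.8 ± 3.29 CPM in 2102 EP and were not called (log2 0.13 ± 0.12, adjusted p = 0.389), whereas with DMSO they stood at 54.3 ± 6.52 CPM in TCam-2 and 17.5 ± 0.145 CPM in 2102 EP, a 3.10-fold difference (adjusted p = 1.08e-10). An antisense gene inside BMP7 (BMP7-AS1) had no counts.

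BMP2, the third ligand, was near the limit of detection and was left out by the filter (ENSG00000125845, chromosome 20, 6767664 to 6780280, plus strand). It had 9, 4 and 9 estimated counts in TCam-2 with I-BRD9 and 1, 1 and 0 with DMSO. Summed over the groups this was 22 against 2 counts, a ratio of 10.6 after scaling with a 95% interval of 2.60 to 92.9 (exact binomial, counting error only). In 2102 EP it had 4, 8 and 6 counts with I-BRD9 and 6, 0 and 1 with DMSO, 18 against 7 in all and a ratio of 2.45 (0.977 to 6.94), in which DMSO replicate 1 held most of the DMSO counts. With no filter on low counts edgeR called BMP2 in TCam-2 (adjusted p = 0.0202) and did not in 2102 EP (adjusted p = 0.442) or for the difference (adjusted p = 0.634).

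SMAD7, which blocks both BMP and activin or TGF-β receptors, was the other member that turned with the line (ENSG00000101665, chromosome 18, 48919853 to 48952052, minus strand). TCam-2 had 16.02, 13.9 and 13.2 CPM with I-BRD9 and 7.67, 9.98 and 9.43 CPM with DMSO. Every treated library was above every DMSO library (45.7% of all genes tested did not overlap, in either direction). The level rose by 0.67 ± 0.16 on the log2 scale (1.59-fold, edgeR adjusted p = 0.00225). 2102 EP had 18.4, 22.5 and 18.3 CPM with I-BRD9 and 29.4, 29.7 and 24.9 CPM with DMSO. There it fell by 0.50 ± 0.15 (adjusted p = 0.0092), with all treated libraries below (46.3% of all genes did not overlap). The difference between the effects was 1.17 ± 0.22 (adjusted p = 0.00053). SMAD7 was the only member called lower in TCam-2 than in 2102 EP, by 1.63 ± 0.16 with DMSO (adjusted p = 4.74e-09) and by 0.46 ± 0.15 with I-BRD9 (adjusted p = 0.0115); the call with I-BRD9 was lost without 2102 EP I-BRD9 replicate 2 (0.0788) or TCam-2 I-BRD9 replicate 3 (0.0502).

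SMAD6, the inhibitor more specific to BMP receptors, was the least abundant tested member (ENSG00000137834, chromosome 15, 66702228 to 66782848, plus strand). It had 8.998, 11.3 and 12.9 CPM in TCam-2 with I-BRD9 and 7.79, 8.60 and 7.47 CPM with DMSO. The groups did not overlap, as for 45.7% of all genes tested, but were not called apart (log2 fold change 0.47 ± 0.21, adjusted p = 0.0993). In 2102 EP it had 3.68, 4.31 and 6.36 CPM with I-BRD9 and 4.46, 6.01 and 5.37 CPM with DMSO, with overlap (−0.13 ± 0.24, adjusted p = 0.699). It was higher in TCam-2 than in 2102 EP with I-BRD9 (1.20 ± 0.22, adjusted p = 7.31e-05) and with DMSO (0.59 ± 0.23, adjusted p = 0.0274). The call with DMSO was lost with all low-count genes kept (0.0503), and also without TCam-2 DMSO replicate 2 (0.0853) or 2102 EP DMSO replicate 1 (0.11) or 3 (0.0522).

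BAMBI, the receptor decoy, was called between the lines and not between the treatments (ENSG00000095739, chromosome 10, 28677342 to 28682939, plus strand). TCam-2 had 65.7, 71.8 and 73.8 CPM with I-BRD9 and 65.3, 58.7 and 71.5 CPM with DMSO, and 2102 EP had 9.54, 9.72 and 13.4 CPM with I-BRD9 and 10.98, 13.4 and 9.97 CPM with DMSO. The treated and DMSO libraries overlapped in both lines, with log2 fold changes of 0.11 ± 0.12 in TCam-2 (adjusted p = 0.512) and −0.07 ± 0.15 in 2102 EP (adjusted p = 0.748). TCam-2 was 6.45-fold above 2102 EP with I-BRD9 (adjusted p = 9.74e-14) and 5.67-fold with DMSO (adjusted p = 2.95e-13).

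ID2 changed most among the 9 tested members in both lines (ENSG00000115738, chromosome 2, 8678845 to 8684453, plus strand). TCam-2 had 1402, 1472 and 1383 CPM with I-BRD9 and 452, 427 and 418 CPM with DMSO. 2102 EP had 142, 154 and 151 CPM with I-BRD9 and 35.7, 39.7 and 33.9 CPM with DMSO. The groups stood far apart in both lines: the rise was 3.28-fold in TCam-2 (log2 1.71 ± 0.08, adjusted p = 1.49e-13) and 4.08-fold in 2102 EP (2.03 ± 0.09, adjusted p = 3.94e-14). The difference of the effects, −0.32 ± 0.11, was not called (adjusted p = 0.0697); DESeq2 called it (0.046), as did edgeR without 2102 EP I-BRD9 replicate 1 (0.0362) or 2102 EP DMSO replicate 2 (0.0422). The antisense gene ID2-AS1 overlaps ID2 and had 85 counts over the 12 libraries.

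ID4, the least abundant of the ID genes, rose in the same way (ENSG00000172201, chromosome 6, 19837386 to 19840684, plus strand). TCam-2 had 63.7, 66.8 and 61.8 CPM with I-BRD9 and 45.3, 43.0 and 38.0 CPM with DMSO. 2102 EP had 29.04, 27.2 and 29.6 CPM with I-BRD9 and 12.0, 9.20 and 9.97 CPM with DMSO. No library of a treated group fell among its DMSO libraries, as for 45.7% of all genes in TCam-2 and 46.3% in 2102 EP. The rise was 1.52-fold in TCam-2 (log2 0.61 ± 0.10, adjusted p = 9.96e-05) and 2.75-fold in 2102 EP (1.46 ± 0.12, adjusted p = 4.15e-09). This rise was smaller in TCam-2 by 0.85 ± 0.16 on the log2 scale (adjusted p = 0.000785). An antisense gene that overlaps ID4 (AL022068.1) had 54 counts over the 12 libraries.

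ID1 (ENSG00000125968, chromosome 20, 31605283 to 31606515, plus strand), the classic BMP target gene, had 867, 907 and 861 CPM in TCam-2 with I-BRD9 and 702, 734 and 761 CPM with DMSO. 2102 EP had 183, 234 and 296 CPM with I-BRD9 and 149, 131 and 126 CPM with DMSO. The groups did not overlap in either line, as for 45.7% of all genes in TCam-2 and 46.3% in 2102 EP. The rise was called in 2102 EP (1.75-fold, log2 0.81 ± 0.13, edgeR adjusted p = 8.3e-05) and not in TCam-2 (0.26 ± 0.12, adjusted p = 0.116). The TCam-2 change was called without 2102 EP I-BRD9 replicate 1 (0.0137) or 3 (0.0262), both of which lie outside TCam-2 and enter through the shared spread, with all low-count genes kept (0.0195) and when the 6 TCam-2 libraries were fitted alone (0.00529). The difference, −0.55 ± 0.17, was just past the threshold (adjusted p = 0.0485). It was lost without any 1 of 10 libraries (adjusted p up to 0.131), all except 2102 EP I-BRD9 replicate 1 and 2102 EP DMSO replicate 1, and with a replicate block it had an adjusted p of 0.139. One TCam-2 DMSO library held reads of ID1 shared with other genes.

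ID3 was the tested member with the widest spread (ENSG00000117318, chromosome 1, 23557918 to 23559794, minus strand). TCam-2 had 137, 119.5 and 169.6 CPM with I-BRD9 and 157, 141 and 175 CPM with DMSO, with overlap (log2 fold change −0.15 ± 0.33, adjusted p = 0.784). 2102 EP had 69.1, 176 and 178 CPM with I-BRD9 and 101, 104 and 75.0 CPM with DMSO. Treated replicates 2 and 3 lay above every DMSO library and replicate 1 below them all, so that the change was not called (0.60 ± 0.33, adjusted p = 0.206). Without replicate 1 it was called (0.92, edgeR adjusted p = 0.00174), as was the difference between the lines (−1.07, adjusted p = 0.0103). That library also had the lowest ID1 of its group (183 CPM) and the highest BMP4 (124 CPM), while its ID2 and ID4 lay beside those of the other treated libraries, and it was the shallowest of the 12 libraries. Its part in the ID3 result beyond these values was not tested.

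**Figure D3:**
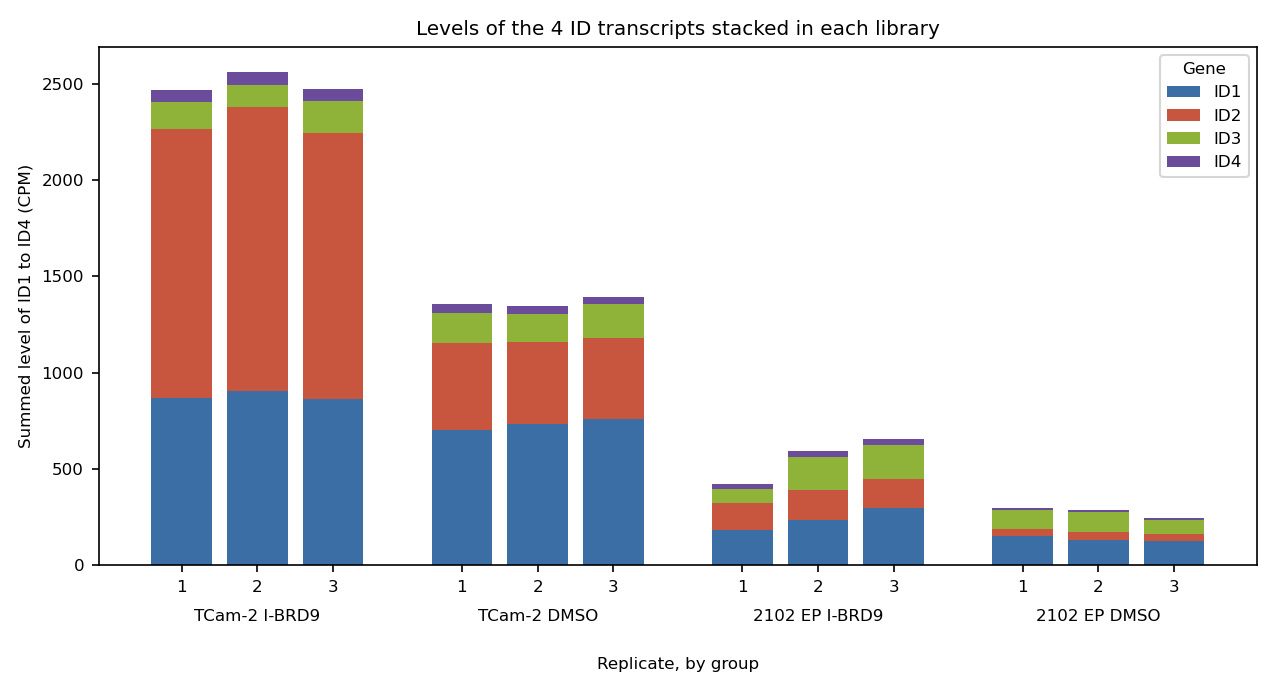
Levels (CPM) of ID1, ID2, ID3 and ID4 stacked in each library, by group and replicate. The summed level was 2503 CPM on average in TCam-2 with I-BRD9 and 1365 CPM with DMSO, and 556 CPM in 2102 EP with I-BRD9 and 275 CPM with DMSO; ID2 made up the largest part only in TCam-2 with I-BRD9.

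Summed, the 4 ID transcripts reached 2503 ± 53.5 CPM in TCam-2 with I-BRD9 and 1365 ± 24.5 CPM with DMSO. In 2102 EP they reached 556 ± 119 CPM with I-BRD9 and 275 ± 27.7 CPM with DMSO. The make-up of this sum moved toward ID2: its share was 56.7 ± 0.754% in TCam-2 with I-BRD9 and 31.7 ± 1.66% with DMSO, and 27.6 ± 5.39% in 2102 EP with I-BRD9 and 13.3 ± 1.13% with DMSO. The share of ID1 was 35.1 ± 0.294% in TCam-2 with I-BRD9 and 53.6 ± 1.67% with DMSO, and 42.7 ± 2.87% in 2102 EP with I-BRD9 and 49.2 ± 2.68% with DMSO. In 2102 EP ID3 made up 24.4 ± 7.10% with I-BRD9 and 33.7 ± 2.92% with DMSO, and in TCam-2 5.69 ± 1.10% with I-BRD9 and 11.6 ± 1.05% with DMSO. These shares are given as a description, without a test.

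Between the lines, 6 of 9 tested members were called with I-BRD9 (5 higher in TCam-2) and 7 with DMSO (6 higher), beside 62.2% and 62.6% of all genes tested (31.1% higher and 31.1% lower with I-BRD9, 31.7% higher and 30.8% lower with DMSO). ID1 was 3.70-fold higher in TCam-2 with I-BRD9 and 5.41-fold with DMSO, ID2 9.53-fold and 11.9-fold, and ID4 2.24-fold and 4.04-fold (adjusted p at most 3.19e-09 for each). ID1, ID2 and ID4 had 1 order of levels, from TCam-2 with I-BRD9 over TCam-2 with DMSO and 2102 EP with I-BRD9 to 2102 EP with DMSO, in which only the step between the treatments of TCam-2 for ID1 was not called; the middle step between TCam-2 with DMSO and 2102 EP with I-BRD9 was not tested, and its libraries did not overlap (with the same treatment, 66.3% of all genes did not overlap between the lines with I-BRD9 and 67.6% with DMSO). ID3 was not called between the lines with I-BRD9 (0.0064 ± 0.33, adjusted p = 0.989) or with DMSO (0.76 ± 0.33, adjusted p = 0.0797), where DESeq2 (0.0461), limma voom (0.0191), a fit on the 6 DMSO libraries (7.12e-05) and a fit without 2102 EP I-BRD9 replicate 1 (0.00134) called it.

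Other genes of the pathway were read from lists of 68 genes in all, of which 48 were tested. With I-BRD9, 13 rose and 6 fell in TCam-2, where 15.3% of all genes tested were called higher and 16.5% lower. In 2102 EP 11 rose and 16 fell, beside 18.2% higher and 18.6% lower. The counts of single lists are to be read against these shares, and several, such as 2 of 9 receptor genes higher in TCam-2, lie near them. Without TCam-2 DMSO replicate 1 the TCam-2 calls were 12 in place of 19: those of BMP8B, BMPR2, SMAD3, SKIL, MSX1, DLX3 and TCF12 were lost (adjusted p 0.0664 to 0.202), and each of these was also lost without at least 1 of I-BRD9 replicates 1, 2 and 3. In 2102 EP the calls of BMP8B, ACVR1, SMAD5, FSTL3 and SOSTDC1 were each lost without at least 1 library: DMSO replicate 2 ended all 5, I-BRD9 replicate 1 and DMSO replicate 1 BMP8B and ACVR1, I-BRD9 replicate 2 FSTL3, and I-BRD9 replicate 3 ACVR1 and SOSTDC1 (adjusted p 0.0571 to 0.14).

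**Figure D4:**
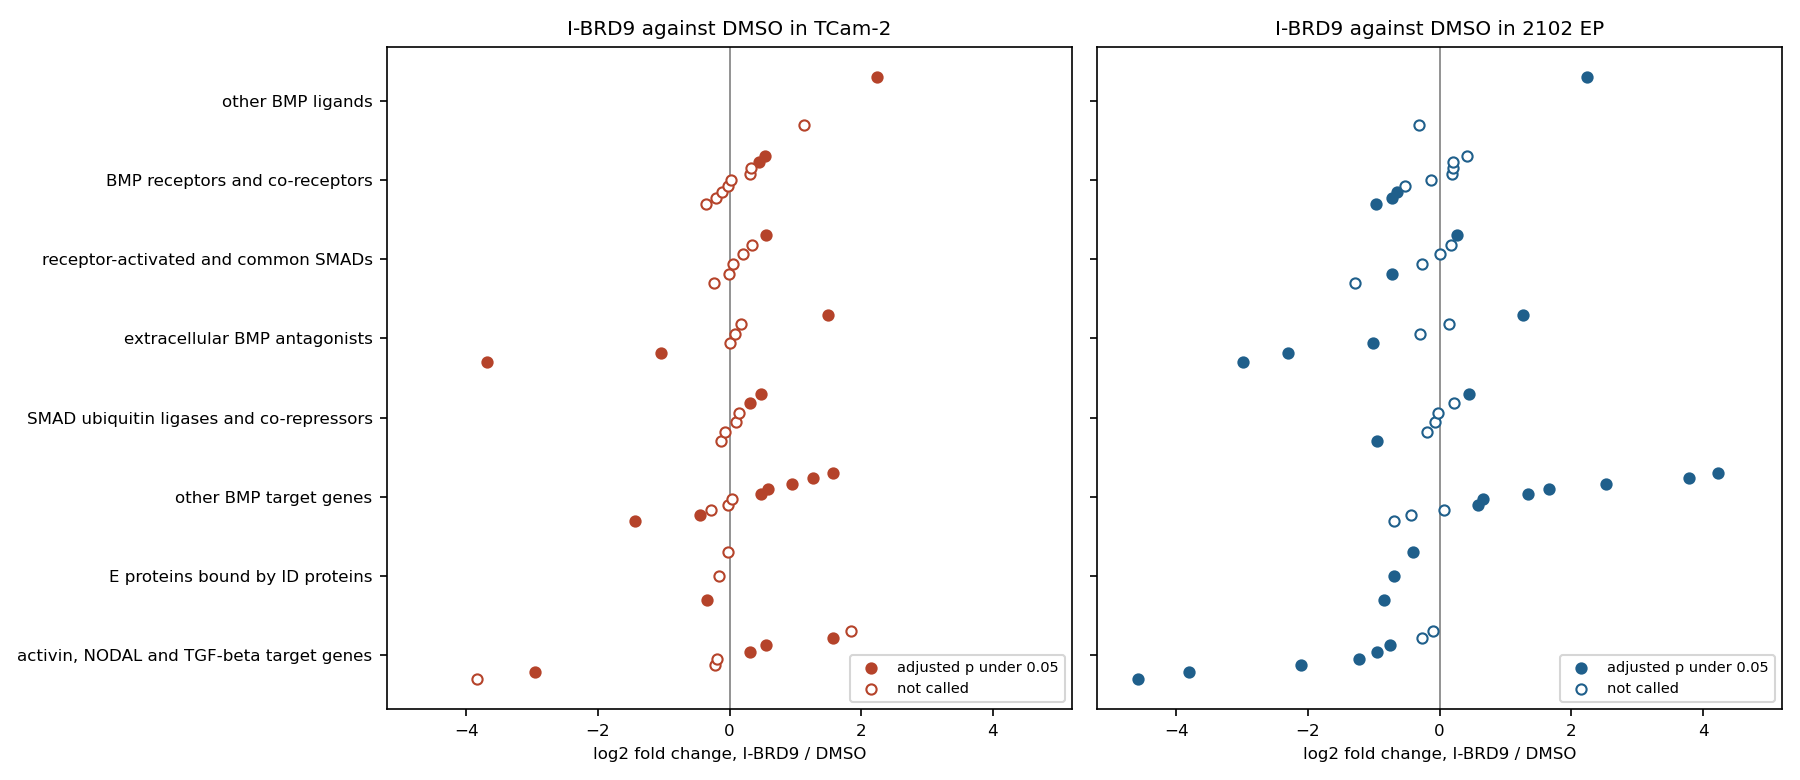
log2 fold change of I-BRD9 over DMSO for the tested genes of 8 pathway lists, TCam-2 on the left and 2102 EP on the right; each point is a gene, and filled points have an edgeR adjusted p under 0.05. Among other BMP target genes 5 rose and 2 fell in TCam-2 and 7 rose in 2102 EP, and the E protein genes lay below 0 in both lines.

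Of 9 tested receptor and co-receptor genes 2 rose in TCam-2, ACVR2B (0.53 ± 0.10, adjusted p = 0.000312) and BMPR2 (0.44 ± 0.14, adjusted p = 0.0204), both type II receptors. In 2102 EP 3 fell and none rose: the type I receptor genes BMPR1A (−0.96 ± 0.16, adjusted p = 7.09e-05) and ACVR1 (−0.73 ± 0.25, adjusted p = 0.026) and ACVR2B (−0.64 ± 0.11, adjusted p = 5.83e-05). ACVR2B had 85.9 ± 10.7 CPM with I-BRD9 and 59.4 ± 2.17 CPM with DMSO in TCam-2, and 35.97 ± 4.69 CPM with I-BRD9 and 56.1 ± 0.574 CPM with DMSO in 2102 EP. Its effects differed by 1.18 ± 0.15 (adjusted p = 5.98e-06) and those of BMPR1A by 0.75 ± 0.21 (adjusted p = 0.0214).

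Of the 6 signal-carrying SMAD genes, SMAD1 fell in 2102 EP (11.4 ± 1.66 CPM with I-BRD9 and 18.9 ± 1.21 CPM with DMSO, log2 −0.73 ± 0.14, adjusted p = 0.000206) and SMAD5 rose (0.26 ± 0.08, adjusted p = 0.0107). In TCam-2 SMAD3, an activin and TGF-β effector, was the only one called (0.55 ± 0.17, adjusted p = 0.018); in 2102 EP it was called lower only without I-BRD9 replicate 1 (−0.48, adjusted p = 0.0399). The effects on SMAD1 differed by 0.72 ± 0.18 (adjusted p = 0.00928). Of 11 other ligand genes 2 were tested, and BMP8B was called in both lines at 1.49 ± 0.563 CPM with I-BRD9 and 0.309 ± 0.186 CPM with DMSO in TCam-2, and 0.832 ± 0.343 CPM with I-BRD9 and 0.166 ± 0.197 CPM with DMSO in 2102 EP. The BMP8B call in 2102 EP (2.24 ± 0.83, adjusted p = 0.037) was also lost with a replicate block (0.0592), with all low-count genes kept (0.0547) and when the 6 libraries of 2102 EP were fitted alone (0.0689).

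Of 6 tested genes of secreted antagonists, 1 rose and 2 fell in TCam-2 and 1 rose and 3 fell in 2102 EP. FST (follistatin), which traps activins and some BMPs, fell to 36.1 ± 4.88 CPM with I-BRD9, against 74.4 ± 4.15 CPM with DMSO, in TCam-2 (−1.04 ± 0.11, adjusted p = 1.77e-07), and by 1.01 ± 0.20 in 2102 EP (adjusted p = 0.000381). SOSTDC1, a BMP and WNT antagonist, had 1.18 ± 0.633 CPM with I-BRD9 and 15.4 ± 1.77 CPM with DMSO in TCam-2 (−3.69 ± 0.33, adjusted p = 1.23e-08). In 2102 EP it had 1 count over the treated libraries and 10 over the DMSO libraries, which were 10.5 times as high (95% counting interval 1.49 to 455). FSTL3 rose by 1.49 ± 0.37 in TCam-2 (adjusted p = 0.00296) and by 1.26 ± 0.39 in 2102 EP (adjusted p = 0.0142). CER1 fell in 2102 EP (−2.30 ± 0.57, adjusted p = 0.00388) and had no counts in TCam-2. The difference between the lines was called for none of the 6 by edgeR. For CER1 it could not be estimated, since TCam-2 had no counts. For SOSTDC1 it was −0.70 (edgeR adjusted p = 0.939), and the 1 treated count in 2102 EP is too few to compare the lines.

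Of the SMAD ubiquitin ligase and co-repressor genes, SKI rose in both lines (0.48 ± 0.09 in TCam-2, adjusted p = 0.00019, and 0.44 ± 0.09 in 2102 EP, adjusted p = 0.000346). SKIL, which is itself a TGF-β target, rose in TCam-2 (0.31 ± 0.11, adjusted p = 0.0266) and fell in 2102 EP (−0.95 ± 0.11, adjusted p = 4.03e-07). These are the same directions as those of SMAD7, and the SKIL effects differed by 1.26 ± 0.15 (adjusted p = 3.13e-06). The TCam-2 call of SKIL was lost without any 1 of TCam-2 I-BRD9 replicates 1, 2 and 3 or DMSO replicates 1 and 3 (edgeR adjusted p 0.0515 to 0.136).

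Among 10 tested target genes other than the ID genes, 5 rose in TCam-2 and 7 in 2102 EP. HAND1 had 547 ± 38.1 CPM with I-BRD9 and 183 ± 20.0 CPM with DMSO in TCam-2 (1.58 ± 0.09, adjusted p = 6.87e-12). In 2102 EP it had 73.6 ± 6.07 CPM with I-BRD9 and 5.31 ± 0.719 CPM with DMSO (3.79 ± 0.13, adjusted p = 1.1e-15). TBX3 had 261 ± 17.8 CPM with I-BRD9 and 135 ± 8.77 CPM with DMSO in TCam-2, and 75.0 ± 5.38 CPM with I-BRD9 and 12.998 ± 1.64 CPM with DMSO in 2102 EP (log2 0.95 ± 0.09 in TCam-2, adjusted p = 1.92e-08, and 2.53 ± 0.11 in 2102 EP, adjusted p = 4.15e-14). GATA2 rose by 1.27 ± 0.16 in TCam-2 (adjusted p = 1.97e-06) and by 1.35 ± 0.19 in 2102 EP (adjusted p = 8.22e-06). The difference of the GATA2 effects was not called (−0.08, edgeR adjusted p = 0.89). MSX1 and MSX2 fell in TCam-2 (−1.44 ± 0.46, adjusted p = 0.0188, and −0.45 ± 0.10, adjusted p = 0.000757). Both rose in 2102 EP, MSX1 by 4.23 ± 0.39 (adjusted p = 1.57e-08) and MSX2 by 0.65 ± 0.16 (adjusted p = 0.00281). MSX1 was low, at 0.511 CPM with I-BRD9 and 1.43 CPM with DMSO in TCam-2. In 2102 EP it had 10.7 CPM with I-BRD9 and 0.554 CPM with DMSO. The difference of the effects was called lower for 5 of the 10 genes and higher for none, beside 7.19% and 5.9% of all genes. Among these were MSX1 (−5.67 ± 0.61, adjusted p = 6.11e-07), HAND1 (−2.21 ± 0.16, adjusted p = 1.18e-09), TBX3 (−1.58 ± 0.14, adjusted p = 2.57e-08) and MSX2 (−1.11 ± 0.19, adjusted p = 0.000219).

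The E protein genes, whose products the ID proteins bind, all fell in 2102 EP: TCF3 had 57.5 ± 3.93 CPM with I-BRD9 and 104 ± 11.6 CPM with DMSO (−0.85 ± 0.10, adjusted p = 4.3e-07), TCF12 fell by 0.70 ± 0.14 (adjusted p = 0.000338) and TCF4 by 0.41 ± 0.09 (adjusted p = 0.000847). In TCam-2 only TCF12 was called (−0.34 ± 0.13, adjusted p = 0.0471), and this call was also lost without any 1 of the 3 DMSO libraries of 2102 EP (0.0516 to 0.0577), with a replicate block (0.0667), with DESeq2 (0.0591), with all low-count genes kept (0.0613) and with upper-quartile scaling (0.0684). The difference between the lines was called for TCF3 only (0.69 ± 0.14, adjusted p = 0.00115).

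Activin, NODAL and TGF-β target genes, whose pathways SMAD7 and SKIL restrain, fell in 2102 EP, 6 of 8 tested with none higher. SKIL is itself among these 6, and SKIL and SMAD3 are also counted in lists above. The largest falls were those of LEFTY2 (−4.58 ± 0.14, adjusted p = 4.2e-15), LEFTY1 (−3.81 ± 0.23, adjusted p = 6.78e-10) and NODAL (−2.11 ± 0.15, adjusted p = 5.09e-09). PMEPA1, a membrane inhibitor of TGF-β signalling, had 61.4 ± 2.79 CPM with I-BRD9 and 143 ± 6.16 CPM with DMSO (−1.22 ± 0.10, adjusted p = 1.05e-09). In TCam-2 3 of the 8 rose, among them SMAD3 and SKIL, and NODAL fell, with 3 counts over the treated and 25 over the DMSO libraries, which were 8.65 times as high (95% counting interval 2.64 to 44.8).

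The genes whose log2 CPM followed each member most closely were sought over the 12 libraries after each line's mean was removed, as a description. They share libraries, and the treatment groups drive the values. For ID2 these were FTL (Pearson r = 0.996), GLIPR2 (0.994) and ACLY (0.994), for ID4 MAP7D1 (0.992), STK17B (0.987) and HAP1 (0.986), and for ID1 TSPAN13 (0.975), PPP3CB (0.971) and VWA5B2 (0.944). BMP7 was followed by IGFBPL1 (0.976), IGFBP5 (0.965) and APBB2 (0.962), and SMAD7 by MED7 (0.975), GNPNAT1 (0.931) and RBAK (0.924). ID3 reached 0.9003 with CHP1, BMP4 0.955 with CINP, SMAD6 0.846 with SMAD4 and BAMBI 0.846 with TSEN15. Without removal of the line means the closest genes were RHPN2 for ID2 (0.996), TWIST1 for ID4 (0.994), VWA5B2 for ID1 (0.994), CHP1 for ID3 (0.912), APBB2 for BMP7 (0.980), NKTR for BMP4 (0.870), MED7 for SMAD7 (0.992) and SHANK2 for BAMBI (0.996).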

How the data were processed

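The authors deposited a merged table of estimated counts for 12 libraries. Per the submitters' processing notes it involved Salmon 1.9.0, DESeq2, R 4.2.0, STAR 2.7.11b and Trim Galore, on GRCh38. The labels name a Lexogen QuantSeq 3′ kit. How strand was used, the annotation release and the order of steps are unstated in the labels and files used here, so that antisense overlaps could not be separated. Estimated counts were rounded to whole numbers. Genes were filtered with filterByExpr, libraries scaled by TMM, and a single edgeR 4.0.16 quasi-likelihood model (R 4.3.3, robust) took the mean of each of the 4 groups over 12 libraries, leaving 8 residual degrees of freedom. P-values were adjusted by Benjamini-Hochberg over 15614 genes within each comparison. The comparisons share groups, so their values are not independent. P-values measure the spread between libraries, since nothing says how the cultures were kept apart. Replicates differed by more than sampling noise (chi-square per degree of freedom at least 4.94), so no library was counted as a repeat. Pathway lists, with up to 3 genes named per list and direction, and all members were chosen with earlier results of these data known. The edgeR fit was tried on simulated counts for the TCam-2 treatment comparison only. The simulation gave all genes the same spread and both lines the same starting levels. The other comparisons and the alternative fits were not tried in this way. Coordinates are from GENCODE 29, promoters from RefSeq (GRCh38.p14). Alternatives were RLE and upper-quartile scaling, no filter, DESeq2 1.42.0, limma 3.58.1 voom, replicate and library-code blocks, fits on the 6 libraries of a comparison and leaving out each library. An estimated count more than 0.01 from a whole number marks shared reads. The likeness rule took the 3 closest genes with a group mean of at least 10 CPM, from log2 CPM with a prior count of 2. PMEPA1, and MSX2 and GATA2 in 2102 EP, were named outside the rule, after their values were seen. Some genes the rule names are not reported here.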

Additional observations from a re-analysis of the deposited data

Results flagged for a closer look

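The I-BRD9 effect on 4 members differed between the lines by the edgeR test of the difference itself (TCam-2 minus 2102 EP). BMP7 fell in 3 of 3 treated TCam-2 libraries and rose in 3 of 3 treated libraries of 2102 EP relative to every DMSO library, a log2 difference of −1.51 (adjusted p = 1.95e-06). Such separation, in either direction, held for 45.7% of all genes tested in TCam-2 and 46.3% in 2102 EP. SMAD7 did the opposite of BMP7, a difference of 1.17 (adjusted p = 0.00053). ID4 rose in both lines and less in TCam-2, a difference of −0.85 (adjusted p = 0.000785). ID1 differed by −0.55 (adjusted p = 0.0485), a call that was lost in most fits that left out a library.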

How the results depend on the processing

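No member that was called changed its sign in any alternative run. The number of members called kept within 1.5 times that given above in every alternative; leaving out each library gave 4 to 5 in TCam-2, 5 to 6 in 2102 EP, 3 to 6 for the difference, 5 to 7 between the lines with I-BRD9 and 6 to 8 with DMSO. The number of all genes called, left out in the same way, was 4139 to 5454 in TCam-2, 4750 to 5738 in 2102 EP, 1649 to 2020 for the difference, 9069 to 9691 between the lines with I-BRD9 and 9075 to 10050 with DMSO. Over members, comparisons and alternatives, 856 values kept their call and 35 did not (20 lost, 15 gained). The replicate block gave 4 members called in TCam-2, 5 in 2102 EP, 3 for the difference, 6 between the lines with I-BRD9 and 7 with DMSO, and 4661, 5487, 1782, 9580 and 9621 genes in all. It lost the ID1 difference (adjusted p = 0.139) and changed no other member's call; RLE scaling (0.0619), limma voom (0.05003) and the library-code block (0.0816) lost it too. Among list genes the block lost TCF12 in TCam-2 (0.0667) and BMP8B in 2102 EP (0.0592). Other such losses were MSX1 in TCam-2 with voom (0.0861) and in the 6-library fit (0.0517), ACVR1 in 2102 EP with no filter (0.0528), voom (0.0737) and the 6-library fit (0.0555), and SOSTDC1 in 2102 EP in the 6-library fit (0.0852). Deviations of same-numbered libraries of a line correlated at −0.12 to 0.16, and those of other-numbered libraries at −0.18 to 0.18. No shared deviation by number was seen. With 3 libraries a group this cannot tell whether same-numbered libraries were set up together. Upper-quartile scaling moved the median of all genes by at most 0.04 (log2). With it, the share of called genes that were higher with I-BRD9 went from 48.2% to 52.8% in TCam-2. In 2102 EP that share went from 49.4% to 54.5%, so the shares of genes higher and lower depend on the scaling. Depth limits BMP2 and the low members of the lists.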

Other observations

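Levels of the ID genes and of their E protein partners were also set against each other in each library, a ratio chosen after the values were seen. The summed CPM of ID1 to ID4 over that of TCF3, TCF4 and TCF12 was 18.0 ± 0.640 in TCam-2 with I-BRD9 and 8.78 ± 0.559 with DMSO, and 4.27 ± 0.845 in 2102 EP with I-BRD9 and 1.35 ± 0.115 with DMSO (SD, n = 3 each). In 2102 EP both sums moved: the E protein genes summed to 129.8 ± 8.03 CPM with I-BRD9 and 205 ± 11.3 CPM with DMSO. In TCam-2 they summed to 139 ± 5.45 CPM with I-BRD9 and 156 ± 7.90 CPM with DMSO. No test was made of these ratios.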
